A study of Homo sapiens with 16 samples.

Results

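The metastasizing cells are the last stage of the BJ fibroblast model of malignant transformation, a human fibroblast cell line labelled hTERT+ SV40+ Ras-G12V. They were sequenced after growth at atmospheric oxygen (2 libraries) and at 3% oxygen (2 libraries), which are 4 of the 16 libraries of the series, and by their labels all 4 carry the telomerase subunit hTERT, SV40 and mutated Ras. Cells of both groups were kept for 6 passages in DMEM with 10% fetal bovine serum under 5% CO2, on duplicate plates in parallel. The p-values therefore measure spread between duplicate plates and not between independently made cell lines. In the main fit that spread is pooled over the 8 groups of all 4 stages, not taken from the metastasizing cells alone. The promoters that drive the introduced genes are not given in the sources used here. Expression is given in TPM (a transcript's level scaled by its length and by the library total) as the authors deposited it, summed here by gene. Of 19356 protein-coding genes, 12288 reached an average of 1 TPM in one group or both and were tested. TPM keeps no read counts, so the depth of each library is unknown. The question put to these libraries is which genes change under moderate hypoxia in cells labelled as carrying every transforming step of the model. The stage before them, transformed cells labelled hTERT+ SV40+ without Ras-G12V and grown under the same 2 oxygen conditions (2 libraries each), serves for comparison.

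Hypoxia-inducible factors are transcription factors whose alpha subunits are hydroxylated and degraded when oxygen is plentiful. When oxygen falls they accumulate and bind hypoxia response elements at genes for glycolysis, oxygen-sparing mitochondrial adjustments, pH control and blood vessel growth. Interferon-stimulated genes are a separate defence programme, switched on when a complex that includes STAT2 and IRF9 binds interferon-stimulated response elements after interferon has reached its receptor, and many of their products block viral replication. Mutated Ras signals through the ERK kinases without an outside growth factor, and ERK signalling raises growth factor ligands and its own inhibitors of the DUSP and SPRY families.

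The DNA upstream of 4 interferon-stimulated genes with large falls at 3% oxygen, and of 2 HIF targets that were not called changed, is shown because the main result is the contrast between these groups. Each line is the 180 bases before a transcript start in RefSeq (GRCh38.p14), 5′ to 3′ in the direction of the gene. Capitals mark the interferon element core GAAANNGAAA in the first 4 and the hypoxia element core, ACGTG or GCGTG, in the last 2, on either strand. The windows are chr19:17405631-17405810 on the minus strand for BST2, chr1:78620268-78620447 on the plus strand for IFI44L, chr1:27672193-27672372 on the minus strand for IFI6, chr10:89392443-89392622 on the plus strand for IFIT1, chr10:73096867-73097046 on the minus strand for P4HA1 and chr10:131981924-131982103 on the minus strand for BNIP3.
BST2: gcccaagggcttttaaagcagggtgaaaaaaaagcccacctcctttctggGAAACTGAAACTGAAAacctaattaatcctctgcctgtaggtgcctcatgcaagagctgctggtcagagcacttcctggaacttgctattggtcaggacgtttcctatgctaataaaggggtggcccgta
IFI44L: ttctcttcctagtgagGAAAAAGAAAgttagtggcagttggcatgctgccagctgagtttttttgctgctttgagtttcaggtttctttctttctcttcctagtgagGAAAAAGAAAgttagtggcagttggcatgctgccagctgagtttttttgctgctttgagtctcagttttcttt
IFI6: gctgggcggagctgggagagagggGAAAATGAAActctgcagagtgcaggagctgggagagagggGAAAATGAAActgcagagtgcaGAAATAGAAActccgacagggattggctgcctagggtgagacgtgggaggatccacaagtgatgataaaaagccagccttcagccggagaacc
IFIT1: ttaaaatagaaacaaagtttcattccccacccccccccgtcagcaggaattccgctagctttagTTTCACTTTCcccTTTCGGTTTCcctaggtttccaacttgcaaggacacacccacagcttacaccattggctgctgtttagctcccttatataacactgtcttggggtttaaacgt
P4HA1: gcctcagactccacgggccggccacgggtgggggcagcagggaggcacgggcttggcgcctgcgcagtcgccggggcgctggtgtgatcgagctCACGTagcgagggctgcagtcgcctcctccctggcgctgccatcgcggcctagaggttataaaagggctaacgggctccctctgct
BNIP3: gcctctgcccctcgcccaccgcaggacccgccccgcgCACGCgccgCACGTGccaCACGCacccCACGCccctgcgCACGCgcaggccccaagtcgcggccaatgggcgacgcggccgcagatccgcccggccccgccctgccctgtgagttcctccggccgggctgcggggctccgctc
BST2 holds 2 overlapping interferon cores, of which the first begins 130 bases before the start. IFI6 holds 3, at -156, -115 and -93, and IFIT1 holds 2, which are read on the opposite strand. BNIP3 holds 6 matches of the hypoxia core and P4HA1 holds 1, at -86. Such matches describe letters and do not show that a factor binds there.

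Over the 250 bases before each start, the interferon core was found in 31 of 53 promoters listed for interferon-stimulated genes (58.5%), against 1061 of all 35116 promoters in the table (3.02%). Promoters of genes called lower at 3% oxygen held it in 66 of 678 cases (9.73%), and in 40 of 630 (6.35%) once the list of interferon-stimulated genes was taken out. Promoters of genes called higher held it in 11 of 414 cases (2.66%). The hypoxia core is short and common, with 15172 of all promoters holding it (43.2%). It was found in 27 of 32 promoters of HIF targets (84.4%), in 187 of 414 promoters of genes called higher (45.2%) and in 316 of 678 of genes called lower (46.6%). Both lie below its share in the promoters of all genes tested, 8072 of 14641 (55.1%), where the interferon core was found in 360 (2.46%). Several promoters can belong to 1 gene, and of the genes tested 9972 had an entry.

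The 2 libraries at 3% oxygen differ from each other, and all values below are therefore shown for each library, replicate a before replicate b. The replicates of this group were over 2-fold apart in 10.99% of its expressed genes (at least 1 TPM), whereas the other 7 groups of the series lie between 1.83% and 4.08%. Of the 12288 genes tested, 914 were over 2-fold higher in replicate b than in replicate a at 3% oxygen and 456 over 2-fold lower, while 243 were over 2-fold apart between the atmospheric replicates. The labelled mean insert size was 343 base pairs for replicate a and 306 for replicate b at 3% oxygen, and 325 and 314 at atmospheric oxygen. Mitochondrially encoded genes held 1.16% and 1.47% of the TPM at 3% oxygen and 2.04% and 3.76% at atmospheric oxygen. The part of these library differences in the results was not tested.

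**Figure D1:**
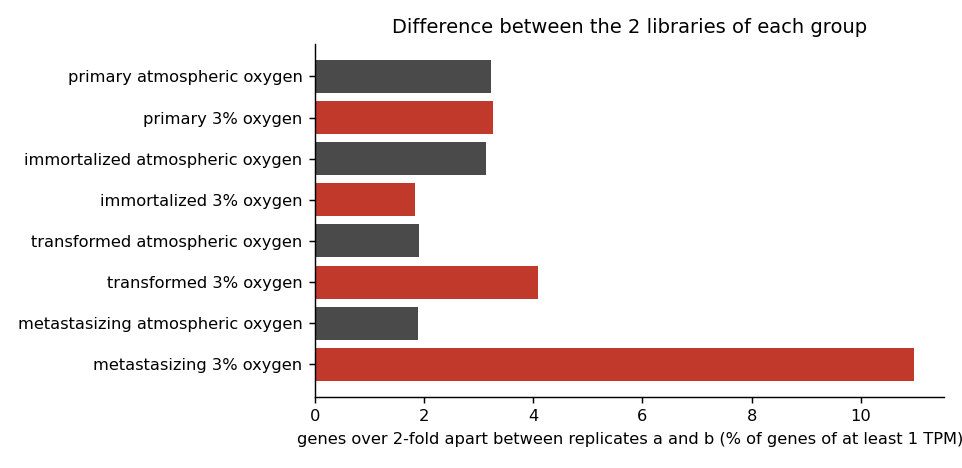
Share of genes over 2-fold apart between the 2 libraries of each of the 8 groups, in percent of the genes that average 1 TPM or more there (grey, atmospheric oxygen, and red, 3% oxygen). The bar of metastasizing cells at 3% oxygen reaches 10.99%, and the other 7 bars end between 1.83% and 4.08%.

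HRAS, the gene of the introduced oncogene (chromosome 11 of GRCh37 from 532242 to 537321), was measured at 94.6 and 78.1 TPM at atmospheric oxygen and 143 and 772 TPM at 3% oxygen. Within 3% oxygen it was far higher in replicate b than in replicate a, and the fold change over the group did not pass the thresholds (log2 fold change 1.95, SE 0.55, adjusted p = 0.0225 from limma, 0.0139 to 0.178 over the alternative fits). Transformed cells, which carry no introduced Ras by their label, had 119.8 and 99 TPM at atmospheric and 49.4 and 61.8 TPM at 3% oxygen. At atmospheric oxygen the metastasizing libraries therefore lie below the transformed ones in summed HRAS TPM, and HRAS expression does not set them apart, so the groups are used here as labelled. Whether the TPM of HRAS count transcripts of the introduced gene cannot be told from these files. TERT, the introduced telomerase gene, had 68.2 and 56.9 TPM at atmospheric oxygen and 31.7 and 68.1 TPM at 3% oxygen and overlapped between the groups.

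The labelled cell type was checked against markers. All 10 fibroblast markers exceeded 1 TPM in all 4 libraries, with VIM (vimentin) the highest, and together they summed to 5308 and 5523 TPM at atmospheric and 4132 to 5450 TPM at 3% oxygen. KRT5, KRT14, CD3E and TYR were listed at 0 in all 4 libraries. The 4 epithelial markers summed to at most 0.972 TPM at atmospheric oxygen and to 1.27 and 3.61 TPM at 3% oxygen, where CDH1 (E-cadherin) alone had 2.80 TPM in replicate a and 0.297 TPM in replicate b. Leukocyte markers summed to 1.45 to 2.17 TPM, melanocyte markers to 2.25 to 4.46 TPM and 3 endothelial markers to at most 0.837 TPM (PECAM1 was not analysed here).

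At 3% oxygen, 376 genes were called higher (3.06% of those tested) and 565 were called lower (4.6%), 941 in all (7.66%), at an adjusted p under 0.01 and a log2 fold change beyond 1. The ranges of the 2 groups did not overlap in any called gene, which was also the case for 58.7% of all genes tested. In 716 of the 941 the change exceeded 2-fold in both libraries at 3% oxygen taken singly, in 147 only in replicate a and in 78 only in replicate b. The median gene had a log2 fold change of -0.13. Rescaling the libraries by median ratios moved that median to -0.00 and the calls to 466 higher and 441 lower, and quantile normalization gave 488 and 424, so which direction holds more genes depends on the scaling.

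The size of the count depends on how the spread is estimated. With the 2 libraries at 3% oxygen down-weighted for their spread, 375 genes were called (3.05%), and each of them is among the 941. A fit of the 4 libraries alone, which leaves 2 residual degrees of freedom against 8, called 112 (0.911%), of which 109 are among the 941. In the main limma fit 5039 of the 12288 genes tested had an unadjusted p under 0.05, and with the 4 libraries alone 2954. Counts of list members at that level, given below, are to be read against these. Without replicate b at 3% oxygen 1450 genes were called, without replicate a 960, and without atmospheric replicate a or b 495 and 536. In 81 genes the call held in the main fit, with weights, with the 4 libraries alone and with a term for the replicate letter, and 24 of those are interferon-stimulated genes.

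**Figure D2:**
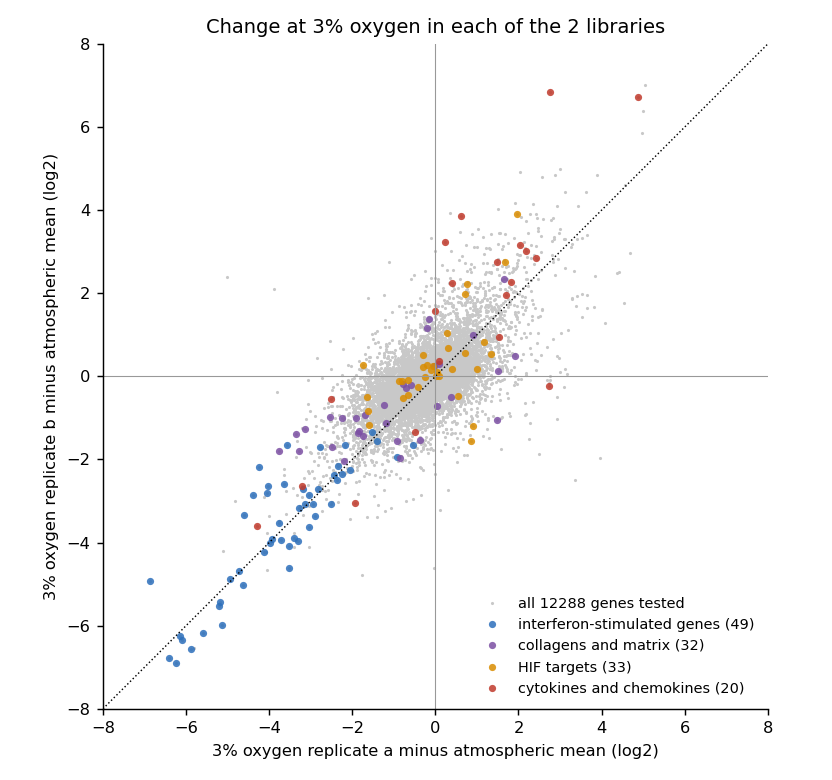
Change of each gene in library a (x axis) and in library b (y axis) at 3% oxygen against the mean of the atmospheric libraries, on the log2(TPM + 0.5) scale, with the line of equal change dotted and 4 gene lists coloured. Interferon-stimulated genes run far down the diagonal in both libraries, HIF targets gather around 0, and several cytokines lie above the diagonal.

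Interferon-stimulated genes formed the largest falling group. Of 50 genes on the list 49 were tested (ISG15 was not analysed here), and 44 were called lower and none higher, against 4.6% of all genes called lower. The median log2 fold change of the list was -3.44, beside -0.13 for all genes tested. All 49 were lower in both libraries at 3% oxygen than in both atmospheric libraries, and 42 were over 4-fold lower in each of the 2 libraries at 3% oxygen. The summed level of the list was 1094 and 1097 TPM at 3% oxygen against 15936 and 15153 TPM at atmospheric oxygen. Single members were less alike than the sums. At 3% oxygen 9 of the 49 were over 2-fold higher in replicate b than in replicate a and 3 over 2-fold lower. Over all 12288 genes tested these counts were 914 and 456. Calls numbered 26 with down-weighted libraries, 35 in the fit of 4 libraries, 37 with the replicate block and 28 to 45 with 1 library left out (28 without atmospheric replicate b, 29 without atmospheric replicate a).

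BST2, a membrane protein that tethers budding virus particles to the cell (chromosome 19 of GRCh37 from 17513748 to 17516439), had 605 and 524 TPM at atmospheric oxygen and 6.13 and 4.63 TPM at 3% oxygen. This was the deepest fall of the comparison (log2 fold change -6.59, SE 0.50, adjusted p = 1.35e-05, limma with Benjamini-Hochberg adjustment, 1.22e-05 to 0.00114 over the alternative fits). RSAD2, whose product viperin makes a chain-terminating nucleotide, dropped from 117 and 125 to 1.1 and 0.512 TPM (log2 fold change -6.58, SE 0.91). IFI6, an interferon-induced membrane protein, dropped from 1498 and 1299.8 to 19.2 and 17.9 TPM (log2 fold change -6.19, SE 0.77, adjusted p = 0.000268, limma). In all of these genes both values at 3% oxygen lie far below the atmospheric ones.

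IFIT1, which binds viral RNA lacking the host's cap methylation, fell from 693 and 753 to 5.72 and 23.3 TPM, and IFI44L fell from 66.4 and 78.5 to 0.555 and 0.392 TPM. OAS1, which makes the 2-5A messenger that activates RNase L, fell from 394 and 401 to 6.29 and 3.71 TPM. The adjusted p of IFI44L and OAS1 was 0.00145 and 0.00125 in the limma fit and 0.000501 to 0.0178 and 0.000501 to 0.0164 over the alternative fits, so both calls end when the libraries are down-weighted. IFITM1, which hinders virus entry, was among the most abundant members and fell from 2432 and 2221 to 47.4 and 31.7 TPM (log2 fold change -5.89, SE 0.61, adjusted p = 9.08e-05, limma). Reads of IFITM1, IFITM2 and IFITM3 can be shared among these similar genes, and IFITM2 (-2.94) and IFITM3 (-3.64 on the log2 scale) were lower too.

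LGALS9, a galactose-binding lectin secreted by many cells and no member of the list, was among the 8 deepest called falls. It went from 68.3 and 54.6 to 0.598 and 0.166 TPM (log2 fold change -6.17). Factors that read the interferon signal were lower as well. STAT2 went from 198 and 207 to 21.9 and 30.6 TPM and IRF9 from 157 and 181 to 35 and 32.8 TPM, with log2 fold changes of -2.94 and -2.30. IRF7, which amplifies interferon production, had a log2 fold change of -4.17, and the RNA sensors RIGI and IFIH1 had -3.44 and -2.15. The 5 members not called were OASL, ISG20, DDX60, DDX60L and GBP1, with log2 fold changes of -3.22, -2.60, -1.90, -1.43 and -1.10 and adjusted p of 0.0146 to 0.0316 (limma).

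**Figure D3:**
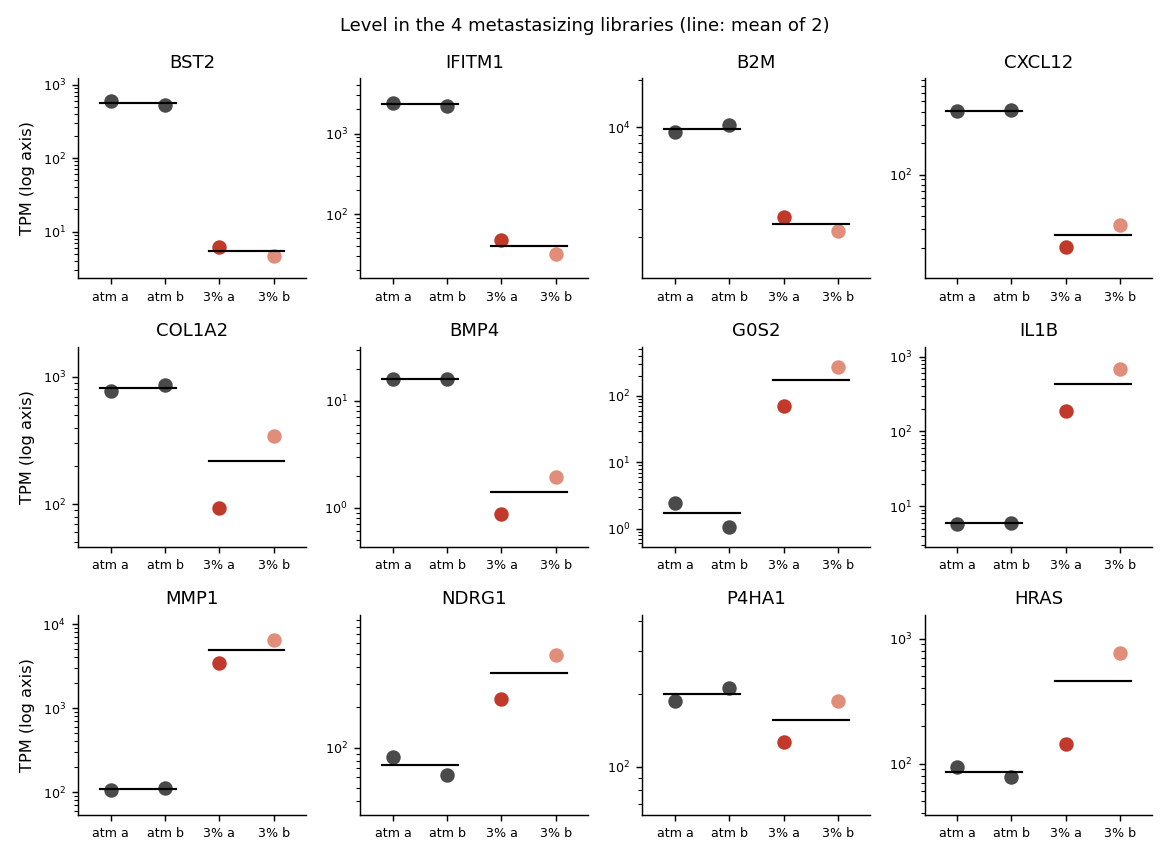
Level of 12 genes in the 4 metastasizing libraries, in TPM on log axes that differ between panels (grey, atmospheric oxygen, red and light red, replicates a and b at 3% oxygen, and lines, means of 2). The falls of BST2, IFITM1, B2M and CXCL12 are alike in both libraries at 3% oxygen, COL1A2, G0S2 and IL1B differ between them within one direction, and HRAS is high in replicate b alone.

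Antigen presentation genes, which load peptides on HLA class I for display to T cells, were lower alongside. Of 13 tested, 6 were called lower and none higher, against 4.6% of all genes called lower, with a median of -1.45, and 2 were called without either atmospheric library, with weights or with the 4 libraries alone. B2M, the invariant chain of class I, had 9366 and 10292 TPM at atmospheric oxygen and 2661 and 2159 TPM at 3% oxygen (log2 fold change -2.03, SE 0.19, adjusted p = 4.4e-05, limma). PSMB9, an immunoproteasome subunit, fell from 19.7 and 18.6 to 2.11 and 3.12 TPM, and TAP1, which pumps peptides into the endoplasmic reticulum, fell from 12.8 and 9.62 to 1.51 and 1.62 TPM. HLA-B (-2.18) and HLA-F (-1.51) were called too, but HLA genes resemble each other and their sums leave out transcripts whose identifiers were not matched, so their levels are uncertain. ERAP2, a peptide-trimming enzyme, had 12.9 and 17 TPM at atmospheric oxygen and 10.5 and 15.6 TPM at 3% oxygen and overlapped.

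The fall of interferon-stimulated genes was compared with transformed cells, the stage just before. Their summed level there was 12178 and 11654 TPM at atmospheric oxygen and 1737 and 7454 TPM at 3% oxygen, so the 2 transformed libraries at 3% oxygen disagree. The median log2 change was -1.48 in transformed and -3.44 in metastasizing cells, and the difference between the stages was called in 4 of 49 genes (BST2, IFITM1, IFITM2 and STAT2), all in the direction of a deeper fall in metastasizing cells, against 5.62% of all genes. For BST2 the transformed libraries had 417 and 391 TPM at atmospheric and 29.9 and 137 TPM at 3% oxygen, and the difference of the log2 changes was -3.95 (SE 0.71, adjusted p = 0.00271 from limma). For IFITM1, with 1257 and 1251 TPM at atmospheric and 191 and 1251 TPM at 3% oxygen in transformed cells, it was -4.53 (SE 0.86). For the other 45 a difference was not called with these libraries.

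**Figure D4:**
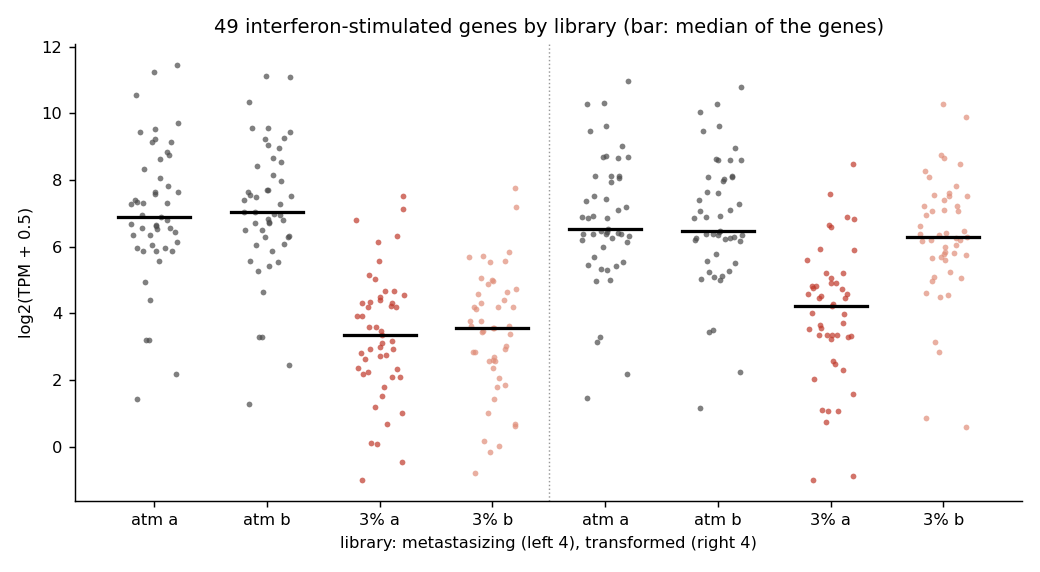
Levels of the 49 interferon-stimulated genes in the 4 metastasizing and the 4 transformed libraries, as log2(TPM + 0.5) (grey, atmospheric oxygen, red and light red, replicates a and b at 3% oxygen, and bars, the median gene). Both metastasizing libraries at 3% oxygen are low, and so is transformed replicate a at 3% oxygen. In transformed replicate b at 3% oxygen the median gene (77.0 TPM) is near the atmospheric medians (92.2 and 87.3 TPM). Its summed level of 7454 TPM is below the atmospheric 12178 and 11654 TPM.

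HIF targets showed no shared rise. Of 33 tested, 3 were called higher (background 3.06%) and 2 lower, and the median log2 fold change was 0.04. For 24 of the 33, of which 22 were not called, the upper end of the 95% interval lies below a 2-fold rise. These intervals rest on the spread pooled over all 8 groups. The 2 libraries at 3% oxygen are further apart than other pairs, so the intervals can be too narrow here. In the main limma fit 18 of the 33 had an unadjusted p under 0.05, beside 5039 of all 12288 genes tested. In the limma fit of the 4 libraries alone none was called, with 11 at an unadjusted p under 0.05 there, beside 2954 of all genes. With down-weighted libraries 2 were called in place of 5. Median-ratio rescaling and quantile normalization each gave 4 called higher and 2 lower, with medians of 0.16 and 0.10.

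Those called higher were STC1, NDRG1 and CA12. STC1, a secreted hormone of calcium and phosphate balance, rose from 27.5 and 30.8 to 116 and 441 TPM (log2 fold change 2.93, SE 0.59, adjusted p = 0.00449, limma). NDRG1, a stress-responsive protein widely used as a hypoxia marker, rose from 84.3 and 62.9 to 232 and 490.0 TPM (log2 fold change 2.20, SE 0.30). CA12, a membrane carbonic anhydrase, rose from 3.54 and 4.15 to 6.87 and 19.7 TPM, with an adjusted p of 0.00998 from limma that ranged from 0.00309 to 0.15 over the alternative fits. In all of them replicate b exceeded replicate a, and both exceeded the atmospheric libraries. Those called lower were TMEM45A, a membrane protein (from 87 and 89.5 to 29 and 39 TPM, log2 fold change -1.38), and INSIG2, which holds back sterol synthesis (from 23.5 and 27 to 7.8 and 14 TPM, -1.23).

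The other HIF targets were not called. VEGFA, the main growth factor of blood vessels, had 78 and 76.9 TPM at atmospheric oxygen and 155 and 87.6 TPM at 3% oxygen (log2 fold change 0.59, SE 0.23, adjusted p = 0.0774, limma). CA9, a carbonic anhydrase that is among the most oxygen-sensitive transcripts, had 5.42 and 3.12 TPM at atmospheric oxygen and 7.13 and 17.8 TPM at 3% oxygen (log2 fold change 1.35, 95% interval 0.30 to 2.41). BNIP3, which marks mitochondria for removal and carries the 6 hypoxia cores printed above, had 333 and 338 TPM at atmospheric oxygen and 274 and 476 TPM at 3% oxygen, and P4HA1, a collagen prolyl hydroxylase, had 187 and 212 TPM at atmospheric oxygen and 126 and 186 TPM at 3% oxygen. PLOD2, a collagen lysyl hydroxylase, had 408 and 469 TPM at atmospheric oxygen and 419 and 520.5 TPM at 3% oxygen, with a 95% interval of the log2 fold change of -0.16 to 0.35. In BNIP3 and PLOD2 the groups overlap.

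Of 7 genes of oxygen sensing limma called none (3 at an unadjusted p under 0.05). HIF1A had 288 and 329.9 TPM at atmospheric oxygen and 259 and 254 TPM at 3% oxygen (95% interval of the log2 fold change -0.50 to -0.03), and EPAS1, the other oxygen-regulated alpha subunit, had 73.2 and 74.3 TPM at atmospheric oxygen and 106 and 82.1 TPM at 3% oxygen (0.06 to 0.61). Both factors are controlled mainly at the protein, which was not measured here. Among 25 genes of glycolysis, 23 have a 95% interval that ends below a 2-fold rise, again on the pooled spread and so possibly too narrow. Of the 25, 1 was called lower and none higher, against 4.6% of all genes called lower, with a median of 0.02. That gene was PFKFB4, a regulator of glycolytic flux, with 31 and 29.1 TPM at atmospheric oxygen and 9.17 and 20.1 TPM at 3% oxygen (log2 fold change -1.11, SE 0.26, adjusted p = 0.00889, limma). This call does not hold up across settings: the adjusted p ranged from 0.0085 to 0.152 over the alternative fits, and without replicate a at 3% oxygen the log2 fold change was -0.57. HK2, hexokinase, had 30.4 and 31.4 TPM at atmospheric oxygen and 32.1 and 21.7 TPM at 3% oxygen. LDHA, lactate dehydrogenase, had 2751 and 2984 TPM at atmospheric oxygen and 2397 and 3514 TPM at 3% oxygen. PDK1, which keeps pyruvate out of mitochondria, had 23.4 and 28 TPM at atmospheric oxygen and 27.2 and 39 TPM at 3% oxygen (log2 fold change 0.34, SE 0.18, adjusted p = 0.182, limma), and none of the 3 passed the test. Replicate b was higher than replicate a by a median of 0.45 on the log2 scale over the glycolysis list, beside 0.10 over all genes.

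The test of the difference separated the stages for this group. The oxygen change was called lower in metastasizing than in transformed cells for 18 of 33 HIF targets and 6 of 25 glycolysis genes, against 5.62% of all genes, and it was called higher for 1 HIF target, PLAUR. The median log2 change of HIF targets was 1.23 in transformed cells. TMEM45A had 11.4 and 11.4 TPM at atmospheric and 55.6 and 59.2 TPM at 3% oxygen in transformed cells, and the difference was -3.66 (SE 0.20, adjusted p = 6.65e-06 from limma). CA9 had 0.231 and 0.487 TPM at atmospheric and 44 and 45.5 TPM at 3% oxygen there, with a difference of -4.38. For P4HA1 the difference was -1.66 (SE 0.21) and for VEGFA -1.71 (SE 0.32). The starting levels differed as well. In metastasizing cells the median of the 35 listed HIF targets was 53.3 and 50.1 TPM at atmospheric and 37.1 and 58.1 TPM at 3% oxygen. In transformed cells it was 18.1 and 18.6 TPM at atmospheric and 59.2 and 66.9 TPM at 3% oxygen.

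**Figure D5:**
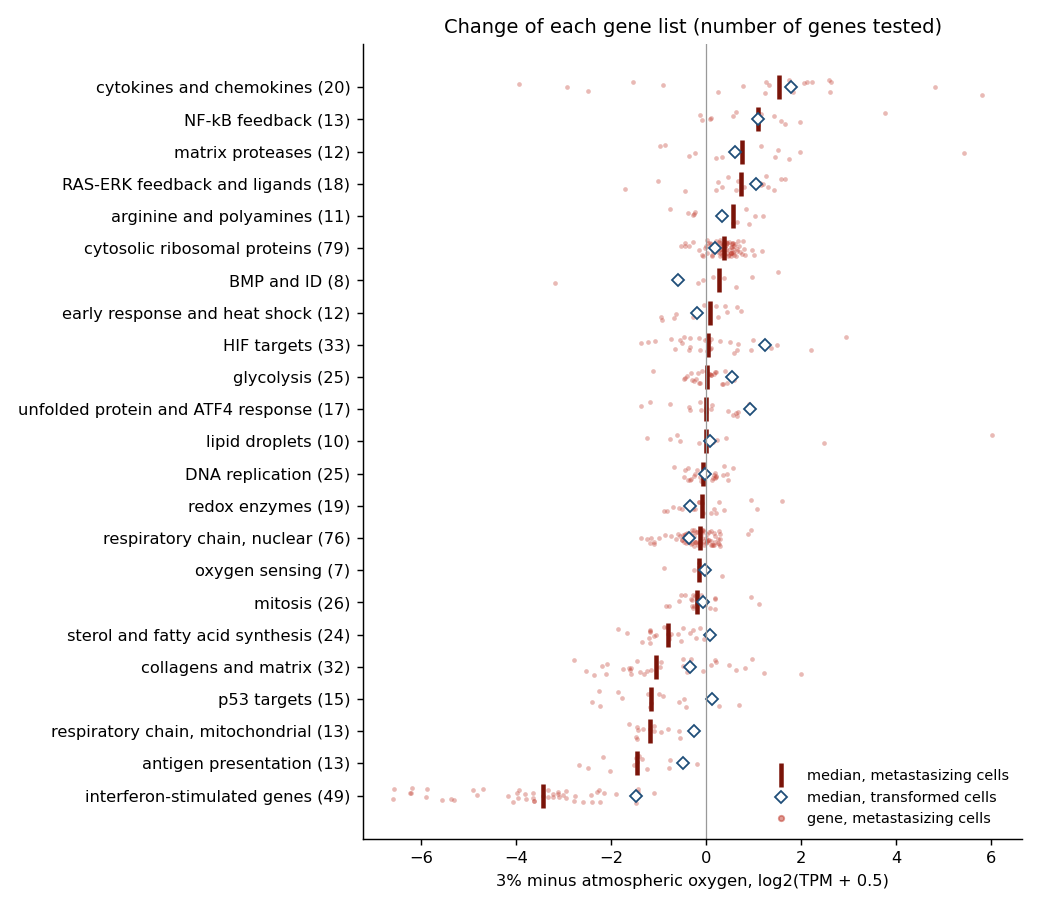
Change at 3% oxygen of each member of 23 gene lists in metastasizing cells (points), with the median of the list in metastasizing (red bar) and in transformed cells (blue diamond), on the log2(TPM + 0.5) scale. Interferon-stimulated genes lie furthest left (median -3.44), cytokines furthest right (1.53), and the medians of HIF targets are 0.04 and 1.23 in the 2 stages.

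The unfolded protein and ATF4 response, which includes amino acid synthesis genes, gave no limma call among 17 genes (median -0.00 against 0.92 in transformed cells). Of these, 6 had an unadjusted p under 0.05 by limma, beside 5039 of all 12288 genes tested. The difference between stages was called lower for 5 and higher for 1, against 708 and 358 of all 12590 genes tested for it. ATF4 itself had 441 and 409.8 TPM at atmospheric oxygen and 359 and 438 TPM at 3% oxygen, and 320.3 and 321 TPM at atmospheric and 671 and 564 TPM at 3% oxygen in transformed cells. Of the members called in the difference, CHAC1, a glutathione-degrading enzyme, had the largest (-4.16, SE 0.95).

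Among called genes, the 8 largest rises by log2 fold change were in G0S2, IL1B, ESM1, MMP1, ARHGDIB, CDCP1, TM4SF1 and CRIP1. G0S2, an inhibitor of the triglyceride lipase ATGL (chromosome 1 of GRCh37 from 209848757 to 209849735), rose from 2.4 and 1.07 to 69.6 and 276 TPM (log2 fold change 6.02, SE 0.73, adjusted p = 0.000233, limma with Benjamini-Hochberg adjustment, 0.000177 to 0.0102 over the alternative fits). IL1B, the inflammatory cytokine interleukin 1 beta (chromosome 2 of GRCh37 from 113587328 to 113594393), rose from 5.76 and 6 to 186 and 677 TPM (log2 fold change 5.80, SE 0.74, adjusted p = 0.000319). MMP1, the interstitial collagenase (chromosome 11 of GRCh37 from 102660132 to 102668891), rose from 107 and 112 to 3467 and 6422 TPM (log2 fold change 5.42, SE 0.34, adjusted p = 4.77e-06, limma). Replicate b was higher than replicate a in each of these, and both were far above the atmospheric libraries.

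ESM1, a proteoglycan secreted by endothelial cells, rose from 0.801 and 1.02 to 44.7 and 118 TPM. ARHGDIB, best known in blood cells, rose from 2.6 and 0.952 to 49.9 and 51.5 TPM, alike in both replicates. CDCP1, a transmembrane substrate of Src kinases, rose from 3.58 and 4.25 to 64.8 and 126 TPM, and TM4SF1, a tetraspanin-like membrane protein, rose from 6.48 and 8.2 to 95.3 and 168 TPM. CRIP1, a small LIM-domain protein, rose from 0.372 and 0.466 to 6.82 and 28.6 TPM, and its adjusted p ranged from 0.000513 to 0.0342 over the alternative fits (limma). The log2 fold changes of these 5 were 5.70, 4.59, 4.37, 4.03 and 3.99. In transformed cells CRIP1 had 7.4 and 7.27 TPM at atmospheric and 4.21 and 8.3 TPM at 3% oxygen.

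Cytokines and chemokines split. Of 20 tested, 4 were called higher (IL1B, IL1A, IL24 and CXCL5) and 3 lower (CXCL12, TNFSF10 and CXCL16), against 3.06% and 4.6% of all genes, with a median of 1.53. IL1A, the second interleukin 1 cytokine, rose from 0.216 and 0.394 to 2.76 and 6.67 TPM. IL24 rose from 1.03 and 0.621 to 5.4 and 10.1 TPM, and CXCL5, a neutrophil attractant, rose from 2.24 and 3.06 to 9.61 and 11.7 TPM. CXCL12, the ligand of CXCR4, fell from 403 and 415 to 20.5 and 33.1 TPM (log2 fold change -3.95, SE 0.23, adjusted p = 3.45e-06, limma, 1.42e-06 to 0.00167 over the alternative fits). TNFSF10, the death ligand TRAIL, fell from 5.47 and 5.35 to 0.139 and 0.442 TPM. Without replicate a at 3% oxygen 7 were called higher, and without either atmospheric library 1.

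Other inflammatory genes did not pass the test, and several of them were uneven between the libraries at 3% oxygen. CSF3, the granulocyte growth factor, had 3.27 and 3.66 TPM at atmospheric oxygen and 26.5 and 458 TPM at 3% oxygen (log2 fold change 4.81, SE 1.25, adjusted p = 0.0157, limma). CXCL1 had 19.5 and 20.4 TPM at atmospheric oxygen and 30.6 and 294 TPM at 3% oxygen, and CXCL8 had 100.1 and 108 TPM at atmospheric oxygen and 292 and 699.6 TPM at 3% oxygen. CSF2 had 4.92 and 4.69 TPM at atmospheric oxygen and 18.3 and 25.3 TPM at 3% oxygen, with both libraries above the atmospheric ones (log2 fold change 2.05, SE 0.81, adjusted p = 0.0793). IL6 was nearly level, with 139 and 138 TPM at atmospheric oxygen and 148 and 180.4 TPM at 3% oxygen. LIF went the other way, with 13.5 and 8.76 TPM at atmospheric oxygen and 75.5 and 9.19 TPM at 3% oxygen, high in replicate a alone. CXCL1, CXCL8, IL6 and LIF were picked from the list after their values were seen.

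Of 13 genes of NF-kB and its feedback, 3 were called higher and none lower (median 1.08), against 3.06% of all genes called higher. PTGS2, cyclooxygenase 2, rose from 3.82 and 4.06 to 47.4 and 75.8 TPM (log2 fold change 3.77, SE 0.49, adjusted p = 0.000382, limma), TNFAIP2 rose from 13.4 and 12.4 to 47.1 and 57.5 TPM and the adhesion molecule ICAM1 rose from 59.4 and 48.9 to 190.2 and 135 TPM. TNFAIP3, the NF-kB inhibitor A20, had 5.9 and 8.02 TPM at atmospheric oxygen and 63.7 and 7.9 TPM at 3% oxygen, high in replicate a alone. SOD2, the mitochondrial superoxide dismutase, had 171 and 159 TPM at atmospheric oxygen and 121 and 256 TPM at 3% oxygen and overlapped. RELA, an NF-kB subunit, had 52.6 and 44.9 TPM at atmospheric oxygen and 45.4 and 43 TPM at 3% oxygen.

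Of 18 genes of RAS-ERK feedback and ligands, 4 were called higher and 1 lower (median 0.73), against 3.06% and 4.6% of all genes. DUSP5, a nuclear ERK phosphatase, rose from 29.9 and 28.8 to 71.6 and 87.8 TPM (log2 fold change 1.42, SE 0.11, adjusted p = 1.52e-05, limma). ETV4, a transcription factor downstream of ERK, rose from 16.5 and 15.3 to 44 and 34.3 TPM, the ERK pathway inhibitor SPRY4 rose from 6.66 and 7.02 to 17.7 and 14.9 TPM, and the AP-1 subunit FOSL1 rose from 133 and 129 to 377 and 225 TPM. SPRY1, a relative of SPRY4, fell from 1.91 and 2.55 to 0.301 and 0.367 TPM (log2 fold change -1.70), whereas in transformed cells it had 0.815 and 0.496 TPM at atmospheric and 2.18 and 2.72 TPM at 3% oxygen (difference -3.06, SE 0.29). DUSP6, a cytoplasmic ERK phosphatase, had 7.04 and 7.16 TPM at atmospheric oxygen and 12.5 and 43.7 TPM at 3% oxygen and missed the threshold (adjusted p = 0.0108, limma). With the 4 libraries alone none of the list was called, with 8 at an unadjusted p under 0.05, and without replicate a at 3% oxygen 7 were called higher. Replicate b at 3% oxygen had the higher HRAS level, and of the 4 called higher DUSP5 was higher in replicate b and ETV4, SPRY4 and FOSL1 in replicate a. Over the list of 18 the median log2 change was 0.39 in replicate a and 0.80 in replicate b. In the list 5 genes were over 2-fold higher in replicate b than in replicate a and 1 over 2-fold lower. Over all 12288 genes tested these counts were 914 and 456. The part of the HRAS level in these values was not tested.

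Among 12 matrix proteases, MMP1, MMP3 and PLAU were called higher and none lower, against 3.06% of all genes called higher. With the 4 libraries alone 1 was called, and 2 with down-weighted libraries or without atmospheric replicate a. MMP3, stromelysin, rose from 3.51 and 4.54 to 19.2 and 15.3 TPM, and PLAU, urokinase, rose from 60.1 and 57.9 to 153 and 258 TPM (log2 fold change 1.74, SE 0.22, adjusted p = 0.000306, limma). PLAUR, the urokinase receptor, had 134 and 113 TPM at atmospheric oxygen and 276 and 218 TPM at 3% oxygen. Its log2 fold change of 0.99 (SE 0.14, adjusted p = 0.000604 from limma) lay just under the fold threshold. MMP2, gelatinase A, went lower (73.7 and 72 TPM at atmospheric oxygen and 32.8 and 42 TPM at 3% oxygen, log2 fold change -0.96) and was not called.

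Many collagens and other matrix genes were lower. Of 32 tested, 15 were called lower and 1 higher, against 4.6% and 3.06% of all genes (median -1.06, beside -0.13 for all genes), and the summed level of the 34 genes listed was 9614 and 9438 TPM at atmospheric and 4932 and 5430 TPM at 3% oxygen. With the 4 libraries alone 1 of them was called lower. LUM and DCN, small leucine-rich proteoglycans that space collagen fibrils, fell from 57.9 and 64.1 to 4 and 17.1 TPM and from 22.4 and 29.8 to 2.23 and 7.11 TPM. COL3A1 fell from 193 and 184 to 18 and 71.8 TPM, and COL1A2, a chain of type I collagen, fell from 783 and 866 to 92.9 and 344 TPM (log2 fold change -2.20, SE 0.43, adjusted p = 0.00373, limma). In these 4 genes replicate a was over 3-fold below replicate b, and both were below the atmospheric libraries.

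COL8A1 fell alike in both libraries (from 141 and 144 to 30.9 and 34.4 TPM, log2 fold change -2.12, SE 0.08, adjusted p = 3.47e-07, limma), and so did COL12A1 (from 239 and 277 to 113 and 117 TPM) and COL11A1 (from 94.7 and 104 to 29.3 and 36.5 TPM). SPARC, a collagen-binding glycoprotein, fell from 3083 and 2888 to 791 and 1483 TPM. COL1A1 had 705 and 549 TPM at atmospheric oxygen and 107 and 315 TPM at 3% oxygen and missed the threshold (adjusted p = 0.0122, limma). COL13A1, a transmembrane collagen, rose from 4.94 and 4.43 to 15.9 and 25.6 TPM. The type VI chains did not fall as a set: COL6A1 had 85.6 and 68.3 TPM at atmospheric oxygen and 67 and 172 TPM at 3% oxygen, higher in replicate b, and COL6A3 had 171 and 183 TPM at atmospheric oxygen and 188 and 217 TPM at 3% oxygen. LUM, DCN, COL3A1 and COL1A2 are also among the fibroblast markers, so the summed marker level holds these falls, and fewer cells of a type and less RNA per cell cannot be told apart in bulk samples.

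Of 24 genes of sterol and fatty acid synthesis tested, 5 were called lower and none higher, against 4.6% of all genes called lower. All 24 had a log2 fold change below 0, against 7380 of all 12288 genes tested (median -0.82, and -1.35 in replicate a against -0.43 in replicate b taken singly). In 18 of the 24 the groups did not overlap, which was also the case for 58.7% of all genes tested. INSIG1, which retains the sterol sensor in the endoplasmic reticulum, fell from 212 and 227 to 67.3 and 109 TPM (log2 fold change -1.35, SE 0.17, adjusted p = 0.000293, limma). Without replicate a at 3% oxygen 2 were called lower and without replicate b 14, and without atmospheric replicate a 3. With down-weighted libraries 2 were called, and in the limma fit of the 4 libraries alone none (13 at an unadjusted p under 0.05). STARD4, a cholesterol carrier, fell from 105 and 115 to 41.4 and 53.6 TPM, and DHCR7, the last enzyme of cholesterol synthesis, fell from 113 and 101 to 37.1 and 59 TPM. FASN, fatty acid synthase, had 94.3 and 65 TPM at atmospheric oxygen and 8.98 and 49.2 TPM at 3% oxygen and was not called. Replicate a was far lower than replicate b. Of the lipid droplet list of 10, 2 were called higher and 1 lower, against 3.06% and 4.6% of all genes. Those called higher were G0S2 and DGAT2, a triglyceride-forming enzyme (from 1.12 and 1.35 to 6.51 and 12.6 TPM). FABP3, a fatty acid carrier (from 17.3 and 19.9 to 6.72 and 8.34 TPM), was called lower. With down-weighted libraries 1 of the 10 was called, and in the limma fit of the 4 libraries alone none (3 at an unadjusted p under 0.05).

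Of 15 targets of p53, 6 were called lower and none higher (median -1.17), against 4.6% of all genes called lower. The large T antigen of SV40 binds and inactivates p53, and both groups carry SV40 by their labels. GDF15, a stress-induced hormone, fell from 22.2 and 16.1 to 6.8 and 1.35 TPM (log2 fold change -2.40, SE 0.49, adjusted p = 0.00464, limma). BBC3, the cell-death protein PUMA, fell from 6.62 and 4.42 to 0.45 and 1.13 TPM, FDXR, a mitochondrial reductase, fell from 23.6 and 14.7 to 2.36 and 5.27 TPM, and the death receptor FAS fell from 14 and 14.6 to 4.58 and 3.15 TPM. CDKN1A, the cell cycle inhibitor p21, had 192 and 177 TPM at atmospheric oxygen and 131 and 50.8 TPM at 3% oxygen and was not called (adjusted p = 0.025, limma). With down-weighted libraries 1 of the list was called, without atmospheric replicate a 2, and in the limma fit of the 4 libraries alone none (11 at an unadjusted p under 0.05).

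The 13 mitochondrially encoded genes were all lower at 3% oxygen (median log2 fold change -1.19), without overlap of the groups, and none was called by limma. Over all 12288 genes tested 7380 had a log2 fold change below 0, and the groups did not overlap in 58.7%. Of the 13, 4 had an unadjusted p under 0.05 in the main limma fit and 12 with the 4 libraries alone. Over all 12288 genes tested these counts were 5039 and 2954. MT-CO1, a catalytic subunit of cytochrome oxidase, had 3283 and 6455 TPM at atmospheric oxygen and 1427 and 1945 TPM at 3% oxygen, and MT-ND4, of complex I, had 1011 and 2400.0 TPM at atmospheric oxygen and 393 and 640.4 TPM at 3% oxygen. The atmospheric replicates themselves were far apart, with list sums of 20364 and 37640 TPM against 11611 and 14669 TPM at 3% oxygen. The 76 nuclear genes of the respiratory chain gave no limma call in either direction, with 21 at an unadjusted p under 0.05 (median -0.14).

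The remaining lists held at most 2 called genes each, to be read against 3.06% of all genes called higher and 4.6% called lower. In the mitosis list of 26 genes 1 was called higher, UBE2C, a ubiquitin-conjugating enzyme of mitotic exit (from 232 and 224 to 386 and 631 TPM), and the list stood higher in replicate b than in replicate a by a median of 0.65. None of 25 DNA replication genes was called by limma (12 at an unadjusted p under 0.05), and their median of -0.06 turned to 0.07 with median-ratio rescaling. BMP4, a bone morphogenetic protein, fell from 15.9 and 16.1 to 0.866 and 1.94 TPM (log2 fold change -3.18, SE 0.23, adjusted p = 1.02e-05, limma) as the one called gene of 8 in its list. SRXN1, sulfiredoxin, rose from 28.2 and 28.3 to 126 and 59.3 TPM as the one called gene of 19 redox enzymes. Of 79 cytosolic ribosomal protein genes, RPL13 (from 919.6 and 817 to 1633 and 1863 TPM) and RPS21 (from 1812 and 1614 to 2847 and 5201 TPM) were called higher. This is a smaller share than the 3.06% of all genes. The median of the list was 0.38, and 69 of the 79 had a log2 fold change above 0, against 4908 of all 12288 genes tested. In the main limma fit 51 of the 79 had an unadjusted p under 0.05, beside 5039 of all genes. Neither was called by limma with quantile normalization, with the 4 libraries alone (35 of the list at an unadjusted p under 0.05 there) or without atmospheric replicate b. Ribosomal protein genes have near-identical copies elsewhere in the genome that can share reads. None of 12 early response and heat shock genes or of 11 genes of arginine and polyamines was called by limma (4 and 6 at an unadjusted p under 0.05). In that last list ASS1, argininosuccinate synthase, had 87.2 and 68.8 TPM at atmospheric oxygen and 268 and 119 TPM at 3% oxygen. Its log2 fold change was 1.2 (SE 0.29, adjusted p = 0.0112 from limma, 0.0091 to 0.139 over the alternative fits), so it narrowly missed the call. In transformed cells ASS1 had 24.9 and 24.1 TPM at atmospheric and 219 and 213 TPM at 3% oxygen, and the smaller change of metastasizing cells was called as a difference (-1.91, SE 0.41).

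Over all genes, the oxygen change of metastasizing and transformed cells differed in 1066 of 12590 genes tested (8.47%). A fit of the 8 libraries alone gave 123 calls. Without metastasizing replicate b at 3% oxygen 1698 were called, without metastasizing atmospheric replicate b 584, and without transformed atmospheric replicate a or b 635 and 598. The largest positive differences among those called were in ID1, ID3, ACTG2 and MMP1. ID1 and ID3 are inhibitors of differentiation induced by BMP signals. ID1 had 6.73 and 4.71 TPM at atmospheric oxygen and 21.1 and 13.5 TPM at 3% oxygen in metastasizing and 53.9 and 46 TPM at atmospheric and 2.62 and 2.74 TPM at 3% oxygen in transformed cells (difference 5.48, SE 0.57, adjusted p = 0.000148 from limma). ID3 had 31.8 and 24.6 TPM at atmospheric oxygen and 90.0 and 33.8 TPM at 3% oxygen, and 186 and 168 TPM at atmospheric and 7.46 and 7.63 TPM at 3% oxygen in transformed cells (difference 5.43). ACTG2, a smooth muscle actin, had 33.7 and 31.7 TPM at atmospheric oxygen and 106 and 65.3 TPM at 3% oxygen, and 168 and 171 TPM at atmospheric and 9.82 and 11 TPM at 3% oxygen in transformed cells (difference 5.30, SE 0.26). In these 3 genes the transformed cells moved down from a level above that of metastasizing cells, and the values of metastasizing cells at 3% oxygen were above their own atmospheric ones.

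The largest negative differences among those called were in NUPR1, DPT, INHBE and LGALS9. NUPR1, a stress-induced chromatin protein, had 93 and 78.6 TPM at atmospheric oxygen and 58.7 and 10.5 TPM at 3% oxygen, and 3.51 and 3.75 TPM at atmospheric and 49.4 and 40.5 TPM at 3% oxygen in transformed cells (difference -5.20, SE 0.76). DPT, the matrix protein dermatopontin, had 6.85 and 6.29 TPM at atmospheric oxygen and 0.674 and 1.73 TPM at 3% oxygen, and 6.11 and 6.18 TPM at atmospheric and 34.2 and 69.7 TPM at 3% oxygen in transformed cells (difference -5.02). INHBE, an activin subunit, had 9.11 and 8.33 TPM at atmospheric oxygen and 10.3 and 2.85 TPM at 3% oxygen, and 0.208 and 0.694 TPM at atmospheric and 19.5 and 18 TPM at 3% oxygen in transformed cells (difference -5.00). LGALS9 started higher in metastasizing cells, and its transformed values were 17.7 and 18.9 TPM at atmospheric and 2.12 and 13.8 TPM at 3% oxygen (difference -4.55, SE 0.96).

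Between the 2 libraries at 3% oxygen, the genes that stood highest in replicate a against replicate b were ANKRD1, ADGRV1, TEN1, KCNC4, NDUFA13 and DUSP2. ANKRD1, a muscle stress protein and target of YAP, had 146 against 1.91 TPM, with 8.47 and 9.46 TPM in the atmospheric libraries. DUSP2, a nuclear MAP kinase phosphatase, had 26.8 against 1.51 TPM, with 6.17 and 4.43 TPM at atmospheric oxygen. In both, one library lies above and the other below the atmospheric pair, so their mean describes neither. KCNC4, a potassium channel, had 1.11 and 97.2 TPM at atmospheric oxygen and 70.5 and 2.97 TPM at 3% oxygen, uneven within both groups.

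Those that stood highest in replicate b were C1orf134, DRC3, CSF3, ADORA2A, CAMK1G and RIPOR3. CAMK1G, a calmodulin-dependent kinase, had 0.185 and 0.529 TPM at atmospheric oxygen and 0.564 and 12.4 TPM at 3% oxygen, and ADORA2A, an adenosine receptor, had 0.958 and 2.53 TPM at atmospheric oxygen and 0.47 and 13.7 TPM at 3% oxygen. C1orf134 was listed at 0 in replicate a and at 85.1 TPM in replicate b, with 16.3 and 15.3 TPM at atmospheric oxygen. STYK1, a receptor-like kinase named in the study, was uneven at atmospheric oxygen, with 2.81 and 81 TPM at atmospheric oxygen and 4.03 and 3.61 TPM at 3% oxygen. Only atmospheric replicate b was high.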

How the data were processed

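The authors deposited TPM for each transcript, made with kallisto 0.42.1 and the GRCh37 build according to the submitters' processing notes. Of 180253 transcripts listed, 151453 had an identifier in GENCODE 44 (lifted to GRCh37) and were added up by gene, and these hold between 88.2% and 90.1% of each library's TPM. Log2(TPM + 0.5) was fitted with limma 3.58.1 (R 4.3.3) in 1 model of all 16 libraries with 8 groups and an intensity trend, and tables and figures were made with Python 3.11.15. Protein-coding genes of at least 1 TPM in a group compared were tested, with Benjamini-Hochberg adjustment over all of them, and called at an adjusted p under 0.01 and a log2 fold change beyond 1. Fold changes are on the log2(TPM + 0.5) scale, which understates changes of low genes. Ranges of adjusted p over alternative fits leave out those without a library and the looser threshold. The procedure was tested on simulated data in which all libraries had the same noise at a given level. The 2 metastasizing libraries at 3% oxygen are further apart than other pairs, so the simulation cannot show how the calls fare under their spread. An exact permutation test of 2 against 2 libraries cannot give a two-sided p below 0.333, and none is given.

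Genes were named by rule. The rule took the 8 largest rises and falls among called genes with non-overlapping groups. It added up to 4 called members of each of 23 gene lists with the largest change. It further took 4 checks (HIF1A, EPAS1, HRAS and TERT) and 12 genes the study names. Last came the 6 genes of at least 10 TPM most unlike between the libraries at 3% oxygen in each direction. With them came the 4 largest called differences from transformed cells in each direction. Further list members are named with their values as illustrations, chosen after those were seen, and some genes the rule covers are not reported here. The members and lists were chosen with earlier results of these data known. The authors' own test of estimated counts was not repeated, since TPM hold no counts.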

Additional observations from a re-analysis of the deposited data

Results flagged for a closer look

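The oxygen response of these genes differed between metastasizing and transformed cells by limma's test of the difference (adjusted p under 0.01). Many of them were named for large changes in the same metastasizing libraries that enter this test, so the direction of the difference is partly set by that choice. Of all 12590 genes tested for it 8.47% were called, and the 1066 calls became 123 with only the libraries compared. Values are the difference of the log2 fold changes, metastasizing minus transformed. Among interferon and antigen genes the difference was negative in BST2 (-3.95), IFITM1 (-4.53), B2M (-1.73). Among HIF targets and enzymes of glycolysis it was negative in TMEM45A (-3.66), NDRG1 (-2.36), VEGFA (-1.71), P4HA1 (-1.66), PLOD2 (-1.02), HK2 (-1.15), PFKFB4 (-1.68) and positive in PLAUR (1.18). Matrix and secreted factors with a negative difference were DPT (-5.02), LUM (-3.53), DCN (-2.96), CXCL12 (-2.48), BMP4 (-3.26), INHBE (-5), LGALS9 (-4.55). Sterol genes with a negative difference were INSIG1 (-2.27), STARD4 (-1.82), DHCR7 (-1.27), and stress, p53 and signalling genes with one were NUPR1 (-5.2), GDF15 (-3.28), BBC3 (-3.17), SPRY1 (-3.06), ASS1 (-1.91). The difference was positive in the proteases MMP1 (4.97), MMP3 (2.35) and in ACTG2 (5.3), ARHGDIB (3.33), CDCP1 (2.41), CRIP1 (4.27), ESM1 (4.3), ID1 (5.48), ID3 (5.43), SRXN1 (1.99), TM4SF1 (3.03), TNFAIP2 (1.52).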

How the results depend on the processing

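The count of 941 called genes became 112 with only the libraries compared (32 higher, 80 lower), 375 with array weights (173 higher, 202 lower) and 495 to 1450 with 1 library left out (210 to 499 higher, 285 to 960 lower). In those fits the lone library is assumed to vary like the others. With the replicate letter as a block 541 were called (222 higher, 319 lower), of which 534 are among the 941. Deviations of same-letter libraries correlate at -0.105 across genes, so the shared letters were not taken to pair them. The crossed block, chosen after seeing the data, gave 755. The other settings (pseudocounts of 1 and 0.1, no filter, a filter of 5 TPM, both rescalings, no trend, an adjusted p under 0.05 and all gene types) gave 726 to 1282. The 1066 differences from transformed cells became 123 with only the libraries compared, 439 with the replicate block, 652 with the crossed block, 686 with array weights, 1722 at an adjusted p under 0.05 and 584 to 1698 with 1 library left out. Of 72 named genes followed, 56 were called, none of these changed direction in any setting, and 17 stayed called in all. In 6 genes that were not called the direction turned when 1 library was left out: TERT ranged from -0.96 to 0.13, the STYK1 log2 fold change from -4.24 to 0.38, SOD2 from -0.45 to 0.63, PLOD2 from -0.061 to 0.25, HK2 from -0.50 to 0.055 and LDHA from -0.26 to 0.29 on the log2 scale. LDHA also turned, to -0.19, with quantile normalization. The cause of these shifts was not tested beyond the fewer libraries and degrees of freedom that the settings leave. Depth is unknown, so what it limits cannot be given.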
